A study of Mus musculus with 30 samples.

Results

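The visual cycle genes of the retinal pigment epithelium (RPE) described here are 9 genes, *Rpe65*, *Lrat*, *Rlbp1*, *Rdh5*, *Rdh10*, *Rdh11*, *Rgr*, *Stra6* and *Ttr*, out of 55573 genes listed for each tissue. They were chosen by symbol, each symbol matched 1 row, and all 9 exceeded the mean of 10 normalized counts required for a test in RPE, as did 18832 genes in all. The data are RNA-seq of RPE taken from mice at P25 (postnatal day 25) and, as a tissue without a visual cycle, of bone marrow-derived macrophages (BMDMs). RPE was profiled in 6 mice each of the B6 WT and *Mertk* -/-V1 genotypes and in 3 mice each of *Mertk* -/-V2 and *Mertk* -/-V3, and BMDMs in 3 mice of every genotype. *Mertk* -/-V1 mice lack exon 17 of *Mertk* and keep a neomycin cassette there; the allele was made in E14TG2a embryonic stem cells, which are not of B6 origin, and bred to C57BL/6J, and a stretch of chromosome 2 around *Mertk* still comes from those cells. *Mertk* -/-V2 mice lack exon 18, removed from a floxed allele by Cre in the germline, and *Mertk* -/-V3 mice lack exons 3 and 4, removed with CRISPR/Cas9; both were made in C57BL/6NJ embryos. All mice are labelled C57BL/6J by strain, the study used both sexes of each genotype without the labels giving that of a library, the RPE was taken directly from the eye without treatment, the BMDMs were differentiated in culture, and no allele is restricted to a cell type. The comparisons ask whether loss of *Mertk*, a receptor with which RPE cells take up shed photoreceptor tips, is accompanied by other transcript levels in the RPE, and whether the line made in E14TG2a cells differs from those made in B6 embryos. *Mertk* lies on chromosome 2 and none of the 9 genes does.

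The visual cycle returns the light-exposed chromophore of rods and cones, all-trans retinal, to its light-sensitive 11-cis form. Photoreceptors reduce it to all-trans retinol, which passes to the RPE, where LRAT joins it to a fatty acid, RPE65 turns the ester into 11-cis retinol, 11-cis retinol dehydrogenases such as RDH5 oxidize it to 11-cis retinal, and CRALBP, the product of *Rlbp1*, binds the 11-cis forms. RGR is an opsin of the RPE that binds all-trans retinal, STRA6 takes up retinol from its carrier in blood, and transthyretin (*Ttr*) circulates with that carrier. RDH10 and RDH11 are further retinol dehydrogenases of the RPE. In humans, mutations of several of these genes cause inherited blindness.

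The promoters of 4 members are shown because *Rpe65* kept a lower ratio to the other members in *Mertk* -/-V1 mice, as given further on. The levels of the members otherwise ran alike over the libraries, those of *Rdh11* less closely. Promoter sequences in RefSeq (GRCm38.p6) matched 7 of the 9 genes. Only bases before the first annotated start, in RefSeq and in GENCODE, are printed, 5′ to 3′ on the strand of the gene. Capitals mark matches, on either strand, to CACGTG or CATGTG (E-boxes, the kind bound by MITF), TAATCC (the kind bound by OTX2), ACAATG (the kind bound by SOX factors) and TATAAA, none of which overlapped another here.
*Rpe65*, chr3:159598931-159599174, plus strand: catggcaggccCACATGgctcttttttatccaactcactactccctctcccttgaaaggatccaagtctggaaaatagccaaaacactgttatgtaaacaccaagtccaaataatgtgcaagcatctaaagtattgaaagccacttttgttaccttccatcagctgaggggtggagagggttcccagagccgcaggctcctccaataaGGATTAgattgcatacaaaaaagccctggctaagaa
*Rlbp1*, chr7:79387049-79387277, minus strand: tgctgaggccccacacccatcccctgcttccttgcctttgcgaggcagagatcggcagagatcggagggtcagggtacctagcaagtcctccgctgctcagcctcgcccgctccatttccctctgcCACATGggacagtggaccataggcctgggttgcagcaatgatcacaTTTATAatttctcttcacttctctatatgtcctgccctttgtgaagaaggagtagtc
*Rgr*, chr14:37049015-37049264, minus strand: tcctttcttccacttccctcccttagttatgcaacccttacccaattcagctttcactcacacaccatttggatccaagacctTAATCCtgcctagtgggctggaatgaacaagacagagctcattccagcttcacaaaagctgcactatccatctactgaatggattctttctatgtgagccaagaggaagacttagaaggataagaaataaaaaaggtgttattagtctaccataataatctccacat
*Lrat*, chr3:82903975-82904224, minus strand: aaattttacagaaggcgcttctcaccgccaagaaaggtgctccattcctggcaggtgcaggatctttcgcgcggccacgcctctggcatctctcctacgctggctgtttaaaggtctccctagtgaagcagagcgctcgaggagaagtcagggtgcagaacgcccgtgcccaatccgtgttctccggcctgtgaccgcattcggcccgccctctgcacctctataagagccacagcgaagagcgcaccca
The *Rpe65* stretch held 1 CATGTG and, 42 bases before the RefSeq start, 1 TAATCC, both on the opposite strand and so printed as CACATG and GGATTA. The *Rlbp1* stretch held 1 CATGTG and 1 TATAAA, again on the opposite strand, that of *Rgr* held 1 TAATCC, and that of *Lrat* held none of the 5 motifs. Among the 250 bases before all 32851 promoter starts of the same table, CATGTG occurred in 12.3%, TATAAA in 12.4%, ACAATG in 10.7%, TAATCC in 6.25% and CACGTG in 6.02%. A match of 6 letters is a description of the sequence and does not show that a factor binds there.

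In B6 WT libraries the 9 genes took together from 2.17 to 3.42% of all reads on genes (median 2.63%). Between genes, levels are compared per kilobase of merged exons, as the median over the 6 B6 WT libraries. By that measure *Ttr* came first with 180129 normalized counts per kilobase, and it did not overlap the next gene in range. *Rgr* followed with 45522 and *Rpe65* with 42860, and the ranges of this pair overlapped, although *Rgr* was the higher in all 6 libraries. *Rlbp1* (20771) was below *Rpe65* and above *Rdh10* without overlap. *Rdh10* (10507), *Lrat* (8627) and *Rdh5* (7451) overlapped each with its neighbour. *Stra6* (4346) was separate from both its neighbours, and *Rdh11* (890) was the lowest. The order from *Rlbp1* to *Stra6* depends on the length used: per kilobase of the longest transcript *Rdh5* rose to 15748, above *Rdh10*, and *Stra6* to 8232, next to *Lrat*. 3 genes share sequence with a neighbour in GENCODE M21, so their counts are less certain: *Rdh5* (chr10:128913593-128922888) overlaps *Bloc1s1* on the same strand, *Stra6* (chr9:58063788-58153996) overlaps *Ccdc33* on the other strand, and *Lrat* (chr3:82892579-82903973) overlaps *Rbm46os* on the other strand. These neighbours averaged 22.9, 230 and 12.3 normalized counts over the 18 RPE libraries, and whether the counting used strand is not given in the sources used here. *Rpe65* itself spans chr3:159599175-159625321.

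The RPE libraries held 14137666 to 34124049 reads on genes. All 16 genes of a list of RPE identity genes were detected in every library, the highest being *Dct*, with a mean of 91721 normalized counts; *Best1*, often used to define RPE, was low at 18.5 to 52.9. The summed level of these genes was 239406 to 282299 in B6 WT and 129747 to 290363 in *Mertk* -/-V1 RPE. Transcripts of rod photoreceptors were present as well: the summed level of 15 rod genes ran from 40186 to 966030 normalized counts. The 3 libraries with the most rod transcripts were *Mertk* -/-V1 replicates 5 and 6 and *Mertk* -/-V3 replicate 1, with 966030, 591927 and 462968, and the same 3 were the lowest of all 18 for the 9 visual cycle genes summed, with 265788, 205086 and 296544 against 461722 to 940140 in the other 15. The part of the rod transcripts in the levels below was not tested as a cause; values with rod transcripts as a covariate and without these 3 libraries stand beside them. In bulk RNA, fewer RPE cells in a sample and less RNA of a gene per cell cannot be told apart. *Mertk* was lower in *Mertk* -/-V1 RPE (919 to 1717 normalized counts) and *Mertk* -/-V3 RPE (444, 1005 and 1106) than in B6 WT RPE (2638 to 3924), without overlap, with log2 differences of -1.46 and -2.01 and adjusted p-values of 0.00267 and 0.00222 by limma. In *Mertk* -/-V2 RPE it was not lower (5311, 3811 and 3565); a count over the whole gene cannot show the loss of 1 exon, so the *Mertk* -/-V2 label is not checked by it.

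**Figure D1:**
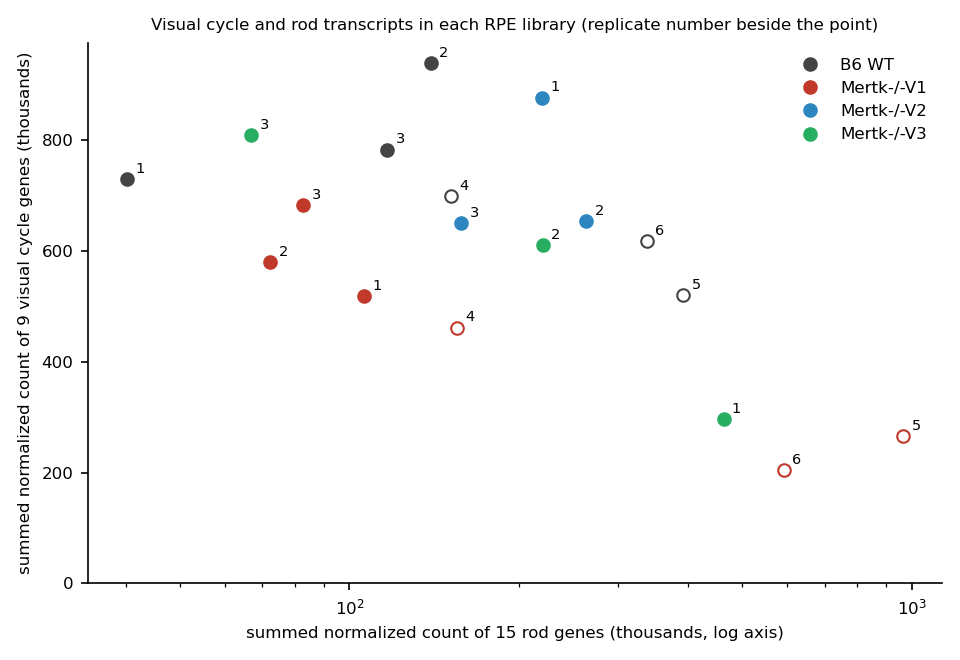
Each point is 1 RPE library, coloured by genotype and marked with its replicate number (filled, replicates 1 to 3; open, replicates 4 to 6). The x axis is the summed normalized count of 15 rod genes in units of 1000 on a log axis, and the y axis is that of the 9 visual cycle genes in the same units. The 3 points farthest to the right, *Mertk* -/-V1 replicates 5 and 6 and *Mertk* -/-V3 replicate 1, are also the 3 lowest.

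In *Mertk* -/-V1 RPE all 9 genes had lower mean levels than in B6 WT RPE, but none passed the test after adjustment over 18832 genes. *Rpe65*, the isomerohydrolase on which the cycle turns, showed the largest difference. It ranged from 58354 to 105278 normalized counts in B6 WT RPE (median 82891) and from 13235 to 63795 in *Mertk* -/-V1 RPE (median 39243). Of the *Mertk* -/-V1 libraries only replicate 3, at 63795, reached into the B6 WT range. The log2 difference was -1.25 (SE 0.34, 95% interval -1.97 to -0.52), with an adjusted p of 0.211 by limma. *Lrat*, the enzyme that provides the ester on which RPE65 acts, ranged from 38628 to 56542 in B6 WT RPE (median 46164) and from 13447 to 52227 in *Mertk* -/-V1 RPE (median 31890), a log2 difference of -0.74 (SE 0.31, adjusted p = 0.661 by limma). Both groups overlapped for *Lrat*, since *Mertk* -/-V1 replicate 3 exceeded 5 of the 6 B6 WT libraries.

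Of the proteins that carry or take up retinoids, *Ttr* ranged from 151508 to 277480 in B6 WT RPE (median 213634) and from 62755 to 179632 in *Mertk* -/-V1 RPE (median 139587), with a log2 difference of -0.82 (SE 0.31, adjusted p = 0.594 by limma). *Stra6* ranged from 20058 to 33558 in B6 WT RPE (median 25330) and from 6611 to 22764 in *Mertk* -/-V1 RPE (median 18171), with a log2 difference of -0.80 (SE 0.29, adjusted p = 0.536 by limma). *Rlbp1* differed less, with 46454 to 85514 (median 61358) in B6 WT RPE against 23554 to 69417 (median 51742) and a log2 difference of -0.47 (SE 0.27, adjusted p = 0.787 by limma). For all 3 the ranges of the 2 genotypes overlapped.

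*Rgr*, the RPE opsin, had 156699 to 290573 normalized counts in B6 WT RPE (median 217866) and 63400 to 222598 in *Mertk* -/-V1 RPE (median 159566), a log2 difference of -0.69 (SE 0.33, adjusted p = 0.739 by limma). The retinol dehydrogenases *Rdh5* and *Rdh10* both differed by -0.66 (SE 0.30 for each), *Rdh5* with medians of 20929 and 16702 and *Rdh10* with medians of 43711 and 30402 in B6 WT and *Mertk* -/-V1 RPE. *Rdh11*, the lowest member per kilobase, ranged from 2604 to 3794 in B6 WT RPE and from 1939 to 3620 in *Mertk* -/-V1 RPE, a log2 difference of -0.19 (SE 0.17, 95% interval -0.55 to 0.17).

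**Figure D2:**
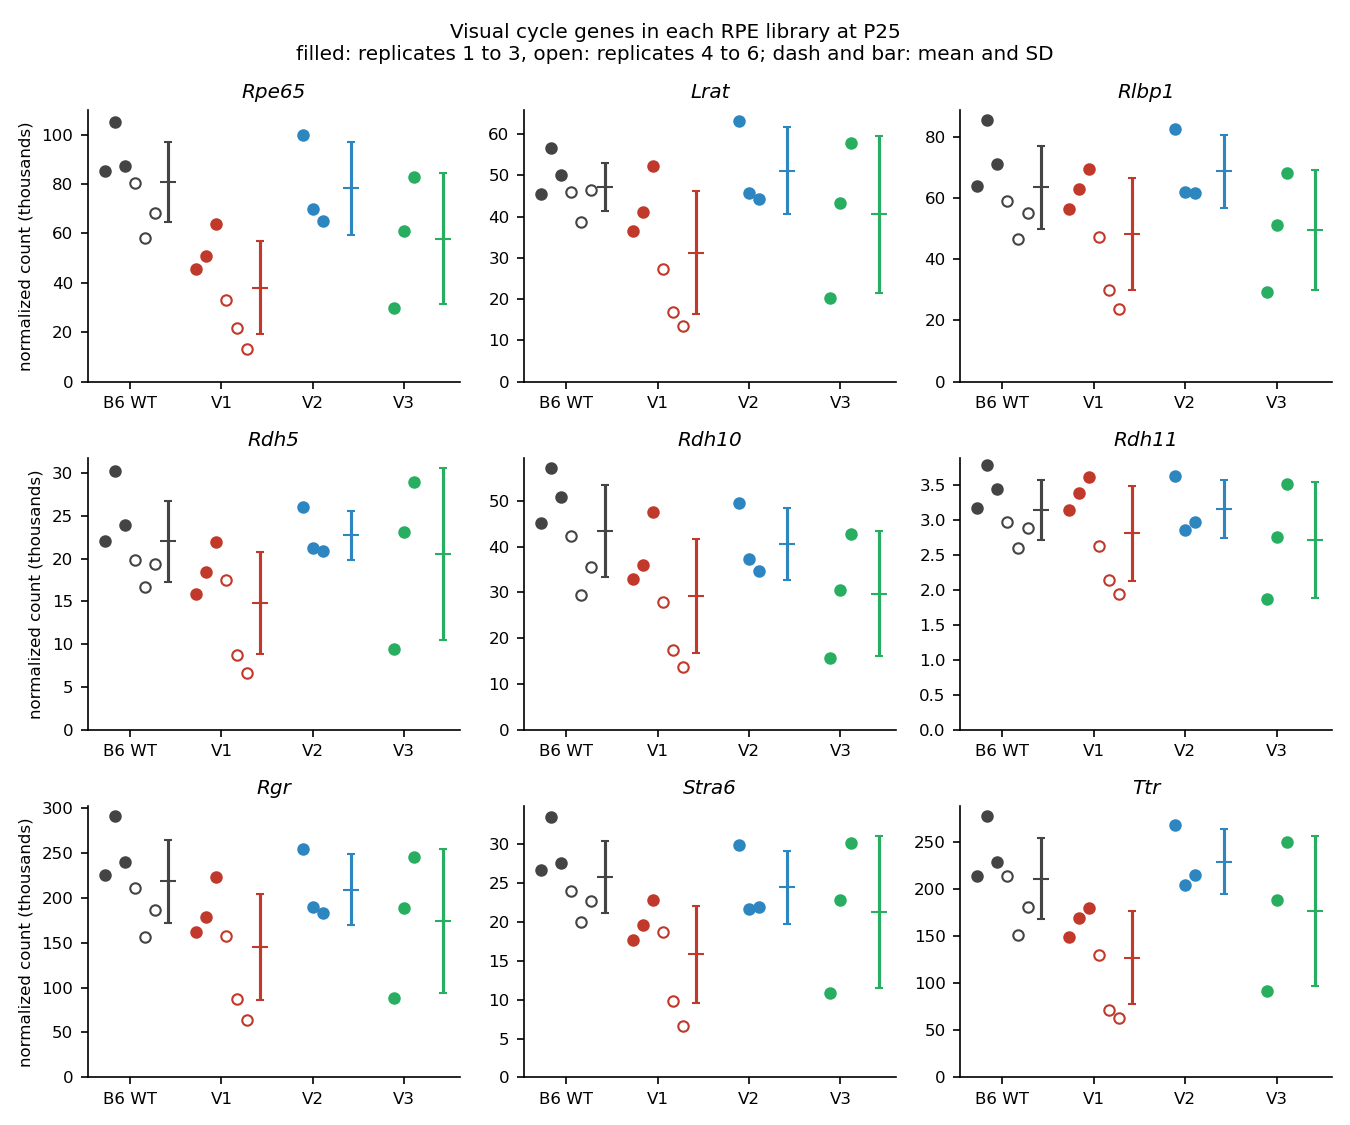
One panel per gene, with the normalized count of each RPE library in units of 1000 on the y axis and the genotype on the x axis (V1 to V3, the *Mertk* -/- lines); filled points are replicates 1 to 3, open points replicates 4 to 6, and dashes with bars the group mean and SD. The panels are alike in that *Mertk* -/-V1 replicates 5 and 6 and *Mertk* -/-V3 replicate 1 are low in all 9. *Rdh11* varies less relative to its level than the other genes. *Rpe65* in *Mertk* -/-V1 RPE spans 13235 to 63795 against 58354 to 105278 in B6 WT RPE.

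A gene was counted as differentially expressed (DEG) where its adjusted p was under 0.05 and its log2 difference reached 1.25 in size, the thresholds of the study. By this rule 0 of 9 genes were DEGs in *Mertk* -/-V1 RPE, where 0.149% of all genes tested were, and 0 of 9 had an adjusted p under 0.05, as did 0.388% of all genes. At an unadjusted p under 0.05, 6 of 9 were lower (*Rpe65*, *Lrat*, *Rdh5*, *Rdh10*, *Stra6* and *Ttr*), against 3.5% of all genes, and 0 were higher, as were 3.31%. By edgeR and by DESeq2 on the recovered reads, 0 of 9 were DEGs too. The median log2 difference of the 9 genes was -0.69, and that of all genes 0.02. For none of the 9 did the groups fail to overlap, as 0.52% of genes did in this direction. A list of 16 other RPE identity genes was below B6 WT in 15 cases, with a median of -0.34 and 4 at an unadjusted p under 0.05.

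The B6 WT and *Mertk* -/-V1 mice carry replicate numbers 1 to 6, and the other lines only 1 to 3; the labels do not say what sets the later numbers apart. Within replicates 1 to 3, *Rpe65* was 45537, 50759 and 63795 in *Mertk* -/-V1 RPE and 85450, 105278 and 87327 in B6 WT RPE, without overlap. Within replicates 4 to 6 it was 32949, 21757 and 13235 against 80332, 58354 and 68266, again without overlap. *Stra6* and *Ttr* were likewise lower without overlap within both sets, so that 3 of 9 members were, against 1.7% of all genes. The log2 difference of *Rpe65* was -0.80 within replicates 1 to 3 and -1.69 within replicates 4 to 6, with adjusted p-values of 0.196 and 0.560 by limma. When the set was added to the model it was -1.25 with an adjusted p of 0.0437 by limma, just short of the fold threshold, and *Rpe65* was then the 1 member of 9 under 0.05, against 0.738% of all genes. The difference between both sets in the *Mertk* -/-V1 effect was itself tested. It was -0.89 for *Rpe65* (95% interval -1.80 to 0.03, adjusted p = 0.719 by limma), it was below 0 for all 9 genes, from -0.31 for *Rdh11* to -1.01 for *Lrat*, and 0 of 9 had an adjusted p under 0.05, where 0% of all genes did. *Lrat* was the only member with an unadjusted p under 0.05 there, against 4.25% of genes in that direction. Without *Mertk* -/-V1 replicate 4, *Lrat* (-1.29), *Rpe65* (-1.21) and *Stra6* (-0.92) had adjusted p-values of 0.0195, 0.0480 and 0.0493 by limma, where 7.98% of all genes were under 0.05, and *Lrat* passed both thresholds, as did 2.06% of all genes. No gene passed both with any other library left out. Without *Mertk* -/-V1 replicate 6 the value of *Rpe65* was -0.55.

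Rod transcripts and RPE identity transcripts were each entered as a covariate, as the mean log2 level of the list. With rod genes as the covariate, *Rpe65* differed by -1.14 (SE 0.21) with an adjusted p of 0.00837 by limma, and 8 of 9 members had an unadjusted p under 0.05, against 6.77% of all genes in that direction. *Rpe65* remained the only member with an adjusted p under 0.05, against 1.66% of all genes. With RPE identity genes as the covariate, *Rpe65* differed by -0.63 (SE 0.17, adjusted p = 0.154 by limma), while the other 8 lay between -0.29 for *Ttr* and 0.12 for *Rdh11*, none with an unadjusted p under 0.05, which 3.95% of all genes had in the lower direction. Without the 3 libraries richest in rod transcripts the difference of *Rpe65* was -0.76 (adjusted p = 0.186 by limma) and that of the other 8 lay between -0.41 for *Ttr* and 0.02 for *Rdh11*. In each of these fits *Rpe65* had the lowest value of the 9. Leaving out *Mertk* -/-V1 replicate 6 alone moved *Rpe65* to -0.98, *Lrat* from -0.74 to -0.53, *Rlbp1* from -0.47 to -0.29 and *Rdh11* from -0.19 to -0.0893.

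**Figure D3:**
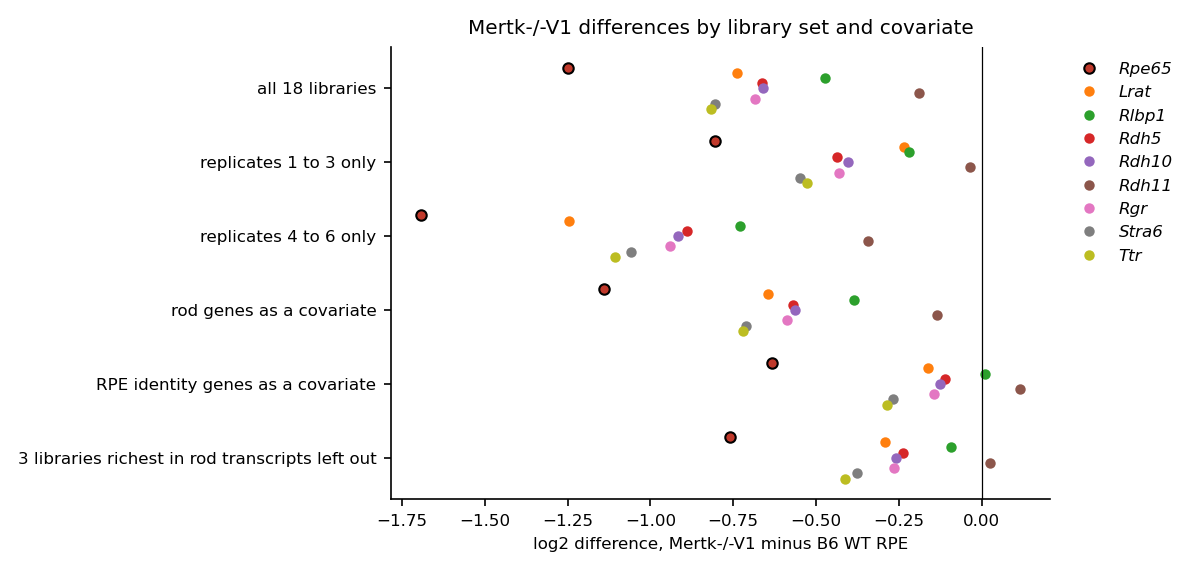
Each point is the log2 difference of 1 visual cycle gene between *Mertk* -/-V1 and B6 WT RPE on the x axis, for the set of libraries or the covariate named on the y axis, by limma; no error bars are drawn. *Rpe65* (outlined) is the leftmost point in all 6 rows, from -0.63 to -1.69, while *Rdh11* is the rightmost.

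Ratios between members of the same library do not depend on its scaling. They were examined after the values had been seen and are given as a description, without a test. The ratio of *Rpe65* to *Rgr* was 0.380, 0.362, 0.363, 0.381, 0.372 and 0.366 in B6 WT replicates 1 to 6. In *Mertk* -/-V1 replicates 1 to 6 it was 0.282, 0.285, 0.287, 0.209, 0.249 and 0.209, all below the B6 WT libraries. In *Mertk* -/-V2 RPE it was 0.393, 0.370 and 0.355, which overlapped B6 WT, and in *Mertk* -/-V3 RPE 0.341, 0.324 and 0.338, which lay between B6 WT and *Mertk* -/-V1. *Mertk* -/-V1 replicates 1 to 3, whose summed rod level (72316 to 106312) was within the B6 WT range of 40186 to 392866, were below B6 WT in this ratio too. The remaining *Mertk* -/-V1 libraries, which include the rod-rich ones, had lower ratios still (0.209, 0.249 and 0.209). The part of the rod transcripts in this ratio was not tested. Of the 18831 genes tested besides *Rgr*, 16, or 0.085%, had a lower ratio to *Rgr* in *Mertk* -/-V1 RPE without overlap, and 2.49% a higher one.

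*Rpe65* was lower in *Mertk* -/-V1 RPE without overlap relative to each of the 8 other members, as were 0.0213% of the 18823 genes tested outside the 9. The gap was narrowest for *Stra6*, with 2.91 to 3.34 in B6 WT and 1.76 to 2.80 in *Mertk* -/-V1 RPE, and the fall of the median was largest for *Rdh11*, from 26.1 to 13.5. No other member was lower relative to more than 2 of its 8 partners: *Ttr* was lower relative to *Rlbp1* and *Rdh11*, *Rgr* relative to *Rlbp1*, and *Stra6* relative to *Rdh11*. In *Mertk* -/-V3 RPE both *Rpe65* and *Rdh10* were below B6 WT without overlap relative to 5 of the 8 other members, and 0.0744% of the genes outside the 9 were so relative to at least 5 of the 8 partners of *Rpe65*. The same held in *Mertk* -/-V2 RPE relative to 2 of 8 for each of *Rpe65*, *Rdh10*, *Rgr* and *Stra6*, and for 1.21% of the genes outside the 9 relative to at least 2.

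**Figure D4:**
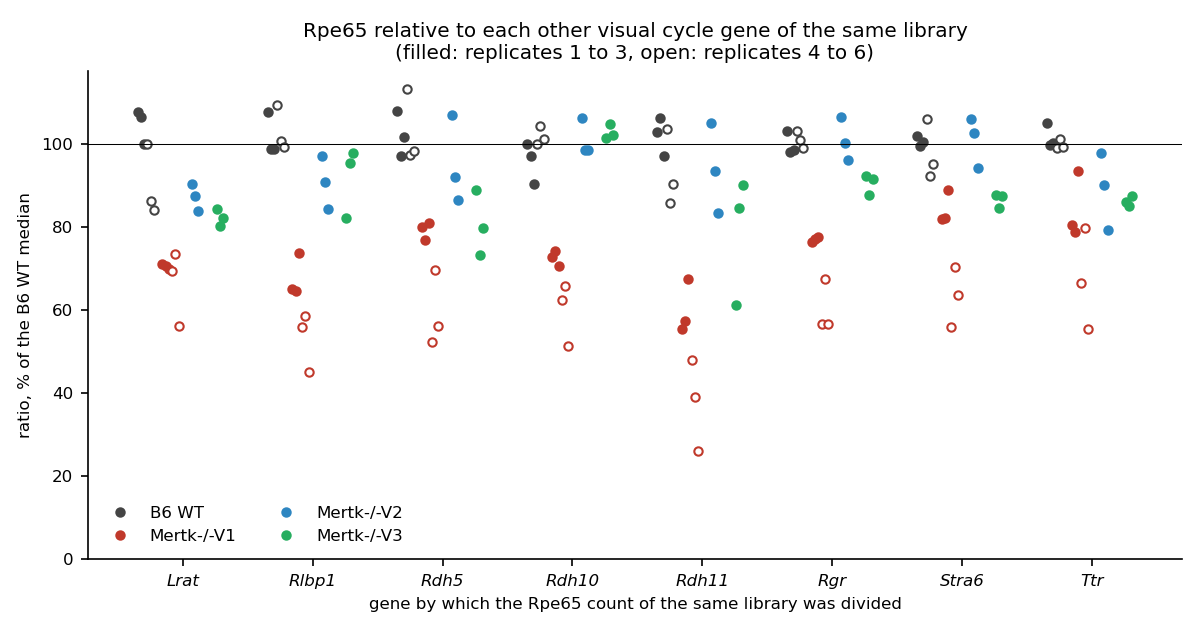
The y axis gives the *Rpe65* count of a library divided by that of the gene named on the x axis in the same library, in percent of the B6 WT median; each point is 1 RPE library, coloured by genotype (filled, replicates 1 to 3; open, replicates 4 to 6). All 6 *Mertk* -/-V1 points lie below all 6 B6 WT points in each of the 8 columns.

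In *Mertk* -/-V2 RPE none of the 9 genes passed the test against B6 WT RPE: the log2 differences ran from -0.08 for *Rdh10* to 0.13 for *Ttr*, with 4 below 0 and none with an unadjusted p under 0.05, where 5.47% of all genes had one; 0 of 9 were DEGs, against 0.0584%. *Rpe65* was 99900, 69949 and 64945 in the 3 *Mertk* -/-V2 libraries, all within the B6 WT range, a difference of -0.05 with a 95% interval from -0.94 to 0.84. *Lrat* (63239, 45685 and 44308), *Rlbp1* (82549, 61794 and 61764) and *Rgr* (254046, 189280 and 183104) showed the same order of the 3 libraries, with replicate 1 the highest.

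In *Mertk* -/-V3 RPE all 9 means were below B6 WT, from -0.63 for *Rdh10* to -0.23 for *Rdh5*, and 0 of 9 had an unadjusted p under 0.05, where 11.1% of all genes had one, or were DEGs, where 0.0637% were. *Rpe65* was 29950, 60934 and 82986, a difference of -0.58 (95% interval -1.46 to 0.31, adjusted p = 0.558 by limma), and *Rdh10* was 15565, 30625 and 42860 (95% interval -1.41 to 0.14). Replicate 1, the library rich in rod transcripts, was the lowest of the 3 for every member. Without it the difference of *Rpe65* was -0.16, that of *Rdh10* -0.23, and *Rgr*, *Rdh5*, *Lrat*, *Stra6* and *Ttr* lay above B6 WT, up to 0.26 for *Rdh5*. With the set of replicates as a term, which counts the *Mertk* -/-V3 mice with B6 WT replicates 1 to 3 although the labels do not tie them, *Rpe65* differed by -1.01 and *Rdh10* by -1.02, with adjusted p-values of 0.0480 and 0.0272 by limma; 25.2% of all genes then had an adjusted p under 0.05. With the replicate number as a block both genes were again under 0.05 (0.0483 and 0.0216 by limma), as were 29.8% of all genes. With quality weights for libraries *Rpe65* (-0.49), *Rdh10* (-0.62), *Rlbp1* (-0.40) and *Rdh11* (-0.26) had adjusted p-values from 0.00119 to 0.0133 by limma, in a fit whose weights did not converge and that put 66.9% of all genes under 0.05.

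Set directly against the mean of the other lines, *Mertk* -/-V1 RPE had lower means for all 9 genes, by log2 differences from -0.94 for *Rpe65* (SE 0.34, 95% interval -1.66 to -0.21) to -0.07 for *Rdh11*. The adjusted p of *Rpe65* was 0.412 by limma, and 0 of 9 genes had an adjusted p under 0.05, where 0.207% of all genes had one, or were DEGs, where 0.0956% were. At an unadjusted p under 0.05 there were *Rpe65* and *Ttr* (-0.71), 2 of 9 against 3.81% of all genes in that direction. With rod genes as a covariate the difference of *Rpe65* was -0.95 with an adjusted p of 0.0409 by limma, where 0.881% of all genes were under 0.05. Only *Mertk* -/-V1 RPE includes the later replicate numbers here, in which the visual cycle genes were lower, as given below. Without a term for the set, this comparison cannot separate the line from the set. With that term, which counts the other lines with the earlier numbers although the labels do not tie them, *Rpe65* differed by -0.50. Its adjusted p was 0.323 by limma, where 1828 of 18832 genes were under 0.05. *Rdh10* (0.086), *Rlbp1* (0.024) and *Rdh11* (0.16) were then higher in *Mertk* -/-V1 RPE. The comparisons with B6 WT share the B6 WT libraries, so their values stand side by side and are not independent of one another.

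**Figure D5:**
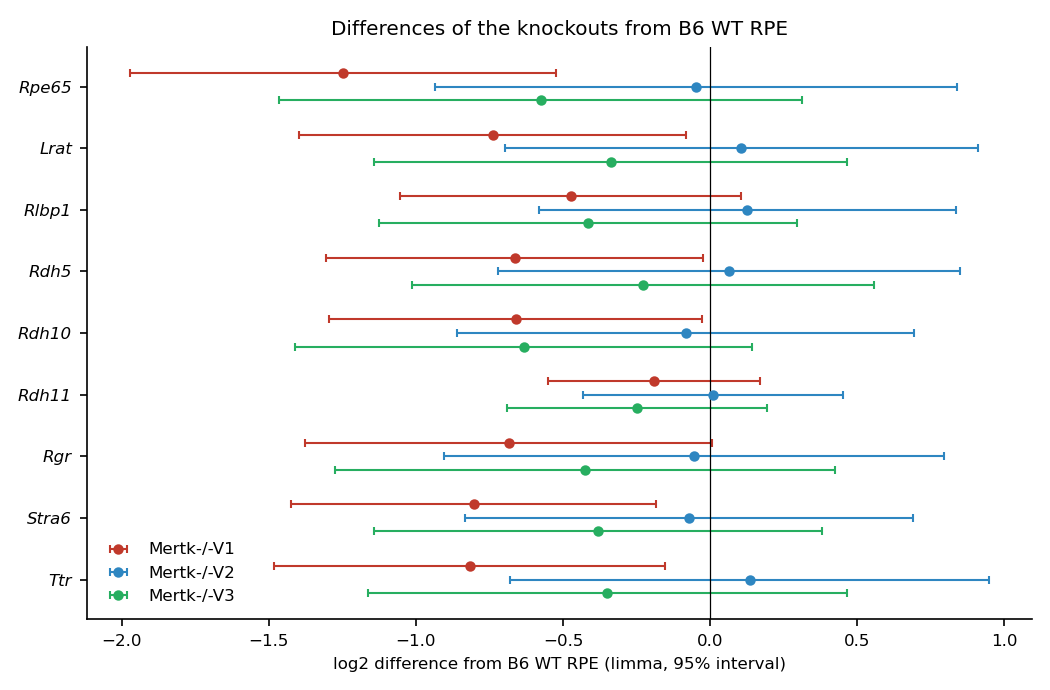
Log2 differences from B6 WT RPE on the x axis for each of the 9 genes on the y axis, with 95% intervals by limma; red, *Mertk* -/-V1, blue, *Mertk* -/-V2, green, *Mertk* -/-V3. The *Mertk* -/-V1 interval lies below 0 for 6 genes and is lowest for *Rpe65* (-1.97 to -0.52), whereas all *Mertk* -/-V2 and *Mertk* -/-V3 intervals hold 0.

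The visual cycle genes also differed between the sets of replicates. With the genotype held in the model and both genotypes that have 6 mice, all 9 were lower in replicates 4 to 6 than in replicates 1 to 3, from -0.45 for *Rdh11* (SE 0.09) to -0.88 for *Rpe65* (SE 0.24). All 9 had an adjusted p under 0.05 by limma, from 0.00746 to 0.0369, as did 40.6% of all genes, and none reached the fold threshold, where 9.24% of all genes did with such a p. With 1 library left out at a time, *Rpe65*, *Rlbp1*, *Rdh10* and *Rdh11* had an adjusted p under 0.05 in all 12 fits, whereas the other 5 genes exceeded it in 3 to 8 of them, at most with 0.0811 for *Rgr*, and 8 of the 12 libraries did so for at least 1 gene. Rod genes moved the other way in the comparison of the sets, 15 of 15 higher with an adjusted p under 0.05 and a median of 2.05. Within B6 WT mice alone the 9 differences lay between -0.52 for *Rdh10* and -0.21 for *Lrat*. Within *Mertk* -/-V1 mice alone they lay between -1.32 for *Rpe65* and -0.61 for *Rdh11*. Adjusted p-values by limma were above 0.05 in either fit, as for all genes: 0 of 18830 and 0 of 18832 were under 0.05.

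Likeness between genes was measured as the SD, over the 18 RPE libraries, of the log2 ratio of their levels, a smaller SD meaning that a pair kept a steadier ratio, and is given as a description over libraries that share their composition. Of 13074 genes outside the list with a mean of at least 100, those nearest to *Rpe65* were *Sostdc1* (SD 0.13), *Sfrp5* (0.14) and *Gip* (0.19); *Sostdc1* and *Sfrp5* encode secreted inhibitors of BMP and Wnt signalling. Nearest to *Rlbp1* were *Arl6ip1* (0.052), *Phgdh* (0.055), an enzyme of serine synthesis, and *Sgk3* (0.070). Nearest to *Ttr* were *Cst3* (0.081), the gene of cystatin C, *Pon1* (0.098) and *Wfdc6a* (0.11). Among the members, *Rpe65* was nearest to *Ttr* (0.24) and *Lrat* (0.24), and farthest from *Rdh11* (0.57). The steadiest ratios among the members were those of *Rgr* and *Stra6* (0.085), *Rdh5* and *Stra6* (0.096), and *Rdh5* and *Rgr* (0.10). *Rlbp1* and *Rgr* (0.13) and *Ttr* and *Stra6* (0.13) were also steadier than the pairs with *Rpe65*. The SDs of *Rdh11* ran from 0.23 with *Rlbp1* to 0.57 with *Rpe65*. *Mertk* -/-V2 and *Mertk* -/-V3 RPE were then left out, and the means by genotype and set removed from the other 12 libraries. The 3 nearest genes were then different for each of the 3 members, *Tshr*, *Gm14133* and *Pon1* in the case of *Rpe65*. Among the members, the SDs of *Rpe65* then ran from 0.065 with *Rgr* to 0.21 with *Rdh11*. *Rdh5* and *Stra6* (0.049) and *Rgr* and *Stra6* (0.060) were steadier than *Rpe65* and *Rgr*, but *Rlbp1* and *Rgr* (0.082) and *Ttr* and *Stra6* (0.12) were not.

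Outside the 9 genes, 39 genes of retinoid carriers, photoreceptor enzymes of the cycle, other retinoid enzymes and retinoic acid receptors were listed, of which 34 were tested in RPE. In *Mertk* -/-V1 RPE 0 of 34 had an adjusted p under 0.05, as did 0.388% of all genes. At an unadjusted p under 0.05, 3 were lower (among them *Abca4* and *Retsat*) and 0 higher, against 3.5% and 3.31% of all genes. The median log2 difference of the 34 was 0.03. Among the carriers, the log2 differences were 0.07 for *Rbp2* (SE 0.41) and 0.07 for *Crabp2* (SE 0.30). Of the genes listed for the photoreceptor side, *Abca4*, a transporter of retinoids in outer segments, differed by -0.33 (SE 0.14). *Rbp3* (0.76, SE 0.74) and *Rdh12* (0.21, SE 0.65) had wide errors. Over all RPE libraries *Abca4* ran only from 12206 to 21709 normalized counts, against 3128 to 104352 for *Rbp3*, and which cells it came from was not tested.

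*Retsat*, which saturates all-trans retinol, was singled out after its values had been seen. It was 839 to 1127 in B6 WT RPE and 482 to 834 in *Mertk* -/-V1 RPE, all 6 libraries below B6 WT, as for 0.52% of all genes. Its log2 difference was -0.61 (SE 0.16) with an adjusted p of 0.148 by limma. With rod genes as a covariate it was -0.56 with an adjusted p of 0.00338 by limma, where 1.66% of all genes were under 0.05. With RPE identity genes, a fit added after the data were seen, it was -0.32 with an adjusted p of 0.0379 by limma. In that fit 120 of 18832 genes were under 0.05. Among the other enzymes with the highest counts, *Degs1* differed by -0.44 (SE 0.22), *Adh1* by -0.06 (SE 0.44) and *Adh7* by -0.09 (SE 0.48). The receptors *Rxra* (-0.09), *Rarg* (0.04) and *Rxrb* (0.06) were close to 0.

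In *Mertk* -/-V2 RPE 0 of the 34 genes had an adjusted p under 0.05, 2 were lower and 0 higher at an unadjusted p under 0.05, against 2.62% and 2.86% of all genes, and the median was 0.07. In *Mertk* -/-V3 RPE 7 were lower and 0 higher, against 6.31% and 4.75%, with a median of -0.15, and 1 was a DEG, where 0.0637% of all genes were. That gene, *Cyp26b1*, which degrades retinoic acid, was 424, 197 and 248 normalized counts in *Mertk* -/-V3 RPE, 498, 562 and 502 in *Mertk* -/-V2 RPE, 632 to 1641 in B6 WT RPE (median 915) and 929 to 2142 in *Mertk* -/-V1 RPE (median 1277). Its log2 difference between *Mertk* -/-V3 and B6 WT RPE was -1.77 (SE 0.31, adjusted p = 0.0429 by limma), and it was higher in *Mertk* -/-V1 RPE than in the mean of the other lines by 1.78 (SE 0.25, adjusted p = 0.00341 by limma). Neither *Mertk* -/-V2 (-0.85, adjusted p = 0.788 by limma) nor *Mertk* -/-V1 RPE (0.47, adjusted p = 0.769 by limma) passed the test against B6 WT. Between the sets of replicates, 15 of the 34 had an adjusted p under 0.05 by limma, close to the 40.6% of all genes, 10 lower and 5 higher in replicates 4 to 6; *Rbp3*, *Rdh8* and *Rdh12*, the genes of rods and cones, were higher by 2.19, 2.06 and 1.79, as were *Crabp1* by 1.61 and *Rara* by 0.36. The lower ones included the carriers *Rbp2* (-1.05), *Rbp4* (-0.74) and *Crabp2* (-0.75), the enzymes *Aldh1a3* (-1.24), *Adh7* (-1.12), *Adh1* (-1.10) and *Degs1* (-0.52), and the receptors *Rarg* (-0.81) and *Rxra* (-0.47).

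Of 10 macrophage genes, all detected in every RPE library, 8 were higher in *Mertk* -/-V1 RPE at an unadjusted p under 0.05, against 3.31% of all genes, and 3 had an adjusted p under 0.05 by limma, against 0.388% in either direction, although their summed level overlapped (6784 to 12020 in *Mertk* -/-V1 and 7825 to 13070 in B6 WT RPE, most of it *Csf1r*). *C1qa* ran from 303 to 790 against 160 to 298, without overlap, with a log2 difference of 1.04 and an adjusted p of 0.0346 by limma. At an unadjusted p under 0.05, 6 of the 10 were higher in *Mertk* -/-V2 RPE and 4 in *Mertk* -/-V3 RPE, against 2.86% and 4.75% of all genes, none with an adjusted p under 0.05. The summed level of 10 genes of choroidal vessels and stroma was 32718 to 55324 in *Mertk* -/-V1 and 24803 to 37025 in B6 WT RPE, with 1 gene higher at an unadjusted p under 0.05. All 15 rod genes had differences above 0 in the same comparison, with a median of 0.23, and none had an unadjusted p under 0.05. The part of the macrophage and choroid genes in the differences of the visual cycle genes was not tested.

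BMDMs gave the background of a tissue without a visual cycle, in 16629659 to 25653814 reads on genes per library. *Rpe65*, *Lrat*, *Stra6* and *Ttr* had 0 reads in all 12 BMDM libraries, which allows up to 3 reads in each; *Rgr* had 1 read in 1 library, *Rlbp1* 4 reads in all, and *Rdh5* from 4 to 15 reads per library. Per 1000000 reads on genes, B6 WT RPE held a mean of 3073 ± 468 (SD, n = 6) for *Rpe65* and 8027 ± 1270 for *Ttr*. The dehydrogenases *Rdh10* and *Rdh11* were expressed in both tissues: *Rdh10* at 1649 ± 305 in B6 WT RPE and 15.9 ± 0.19 (SD, n = 3) in B6 WT BMDMs, and *Rdh11* at 120 ± 11.2 and 59.9 ± 1.43. The tables of the tissues were normalized separately by the authors, so these shares of reads are given side by side. Only *Rdh10* and *Rdh11* exceeded the mean needed for a test in BMDMs. Neither had an adjusted p under 0.05 in any line, where 7.07% of all genes had one in BMDMs of the first line, V1, and 4.61% and 1.17% in those of V2 and V3. *Rdh10* was 326, 322 and 324 normalized counts in B6 WT and 341, 311 and 355 in *Mertk* -/-V1 BMDMs (log2 difference 0.05, SE 0.08). *Rdh11* was 1193, 1208 and 1266 in B6 WT and 1270, 1278 and 1383 in *Mertk* -/-V1 BMDMs, higher without overlap as were 15.4% of all genes, with a difference of 0.10 (SE 0.08, adjusted p = 0.524 by limma). The *Mertk* -/-V1 effect in RPE minus that in BMDMs was -0.60 for *Rdh10* and -0.24 for *Rdh11*, with adjusted p-values of 0.711 and 0.818 by the quasi-likelihood test of edgeR, so neither was shown to differ between the tissues; 0.457% of 12463 genes had an adjusted p under 0.05 there.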

How the data were processed

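RNA was extracted from RPE dislodged from the posterior eyecups of P25 mice and from cultured BMDMs, and sequenced. The deposited values are gene signal values: the authors trimmed reads with btrim, mapped them with STAR to GRCm38 and divided counts per gene by DESeq2 size factors, separately for each tissue; the counting tool, annotation and versions are not given in the sources used here. Whole reads were recovered for 100% of values (tolerance 0.001), 14137666 to 34124049 per RPE library and 16629659 to 25653814 per BMDM library; intervals and limits from reads cover counting error only.

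Groups were taken from the labels. Then log2(value + 1) of genes with a mean of at least 10 was tested with limma 3.58.1 (trend, R 4.3.3, all 4 genotypes in one model, two-sided, Benjamini-Hochberg over all genes), since the values are not counts; genes with an adjusted p under 0.05 whose log2 difference was 1.25 or more in size were DEGs. The *Mertk* -/-V1 effect in RPE minus that in BMDMs was fitted with edgeR 4.0.16 on the recovered reads (quasi-likelihood). edgeR and DESeq2 1.42.0 on those reads, which gave 31 and 64 DEGs in *Mertk* -/-V1 RPE against 28 by limma, were among the alternatives. Fits without the 3 libraries richest in rod transcripts, or with RPE identity genes as a covariate, and all ratios, were added after the data were seen. The 9 genes, the gene lists and the tests were chosen with earlier results of these data known. Besides the 9 genes, the text names retinoid genes with an adjusted p under 0.05 in any RPE comparison or among the 3 highest of their list, the 3 genes most like *Rpe65*, *Rlbp1* and *Ttr*, and *Mertk*; *Abca4*, *Retsat* and *C1qa* are named also for their values; some genes that fall under these rules are not reported here. No replicate pair agreed within sampling noise (lowest chi-square per degree of freedom 3.37). Nothing in the labels says whether replicates are separate litters, so p-values measure the spread between these mice. In RPE the main model has no term for the set of replicates. Its spread therefore includes the difference between the sets in the genotypes that have both. The lines without the later set are compared there with controls pooled over both sets.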

Additional observations from a re-analysis of the deposited data

How the results depend on the processing

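None of the 9 genes passed both thresholds between *Mertk* -/-V1 and B6 WT RPE, or in either comparison of another line with B6 WT, under any alternative run; of 1344 alternative values for single genes, 1245 kept their direction and their side of the thresholds, 89 changed sign and 10 passed them. All of the sign changes were of differences that did not pass the test, and their cause was not tested. Direction in *Mertk* -/-V1 against B6 WT RPE was kept by *Rpe65* in all 27 alternatives, from -1.69 to -0.63. The 10 newly passing values were the 9 genes between the sets of replicates, where 9 rather than 0 counted once the fold threshold was dropped, and *Lrat* in the difference between the sets, where the count ranged from 0 to 1 with 1 library left out; the 1 came without *Mertk* -/-V1 replicate 4, when 387 of 18832 genes passed. Correlations between same-numbered samples ran from -0.46 to 0.72 in RPE (median 0.15, against 0.03 for other numbers of the same set) and from -0.30 to 0.36 in BMDMs (median -0.09, against 0.04); not every pair exceeded 0.1, so the numbers were not taken to pair the samples. The replicate block made no visual cycle gene a DEG. Over all genes it moved the DEGs from 28 to 37 in *Mertk* -/-V1, from 11 to 200 in *Mertk* -/-V2 and from 12 to 1270 in *Mertk* -/-V3 RPE, and from 18 to 558 in *Mertk* -/-V1 against the mean of the other lines. With quality weights, which did not converge in RPE, the last 3 were 127, 1678 and 794, and with the set of replicates in the model 13, 1016 and 487. The DEGs of *Mertk* -/-V1 RPE numbered 64 with DESeq2, 11 with replicates 1 to 3 only and 1 with replicates 4 to 6 only.

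Without the 3 libraries richest in rod transcripts, the sign turned in *Mertk* -/-V1 against B6 WT RPE (*Rdh11* at 0.0248), in *Mertk* -/-V3 against B6 WT RPE (*Rgr* at 0.00418, *Rdh5* at 0.26, *Lrat* at 0.10, *Stra6* at 0.0447 and *Ttr* at 0.0649) and in *Mertk* -/-V1 against the mean of the other lines (*Rdh11* at 0.0222). With RPE identity genes as a covariate, the sign turned in *Mertk* -/-V1 against B6 WT RPE (*Rlbp1* at 0.00810 and *Rdh11* at 0.12), in *Mertk* -/-V2 against B6 WT RPE (*Rdh5* at -0.19, *Lrat* at -0.16, *Rlbp1* at -0.10, *Ttr* at -0.11 and *Rdh11* at -0.13), in *Mertk* -/-V3 against B6 WT RPE (*Rdh5* at 0.0649) and in *Mertk* -/-V1 against the mean of the other lines (*Rgr* at 0.0791, *Rdh10* at 0.22, *Rlbp1* at 0.14 and *Rdh11* at 0.23). With quantile normalization, the sign turned in *Mertk* -/-V2 against B6 WT RPE (*Rpe65* at 0.0156) and in *Mertk* -/-V3 against B6 WT BMDMs (*Rdh11* at 0.00553). With quality weights for libraries, the sign turned in *Mertk* -/-V2 against B6 WT RPE (*Rdh5* at -0.0535, *Rlbp1* at -0.0195, *Ttr* at -0.0113 and *Rdh11* at -0.10), in *Mertk* -/-V1 against the mean of the other lines (*Rdh11* at 0.11) and in *Mertk* -/-V3 against B6 WT BMDMs (*Rdh11* at 0.0119). With the replicate block and likewise with the set of replicates in the model, the sign turned in *Mertk* -/-V2 against B6 WT RPE (*Rdh5* at -0.27, *Lrat* at -0.25, *Rlbp1* at -0.23, *Ttr* at -0.21 and *Rdh11* at -0.22) and in *Mertk* -/-V1 against the mean of the other lines (*Rdh10* at 0.0864, *Rlbp1* at 0.0237 and *Rdh11* at 0.16). With rod genes as a covariate, the sign turned in *Mertk* -/-V2 against B6 WT RPE (*Rgr* at 0.0814, *Rdh10* at 0.0553, *Rpe65* at 0.10 and *Stra6* at 0.0588). With only B6 WT replicates 1 to 3 as controls, the sign turned in *Mertk* -/-V2 against B6 WT RPE (*Rdh5* at -0.15, *Lrat* at -0.000615, *Rlbp1* at -0.10, *Ttr* at -0.0678 and *Rdh11* at -0.14). With only B6 WT replicates 4 to 6 as controls, the sign turned in *Mertk* -/-V2 against B6 WT RPE (*Rgr* at 0.17, *Rdh10* at 0.18, *Rpe65* at 0.17 and *Stra6* at 0.12). With edgeR on the recovered reads, the sign turned in *Mertk* -/-V3 against B6 WT BMDMs (*Rdh11* at 7.91e-06). With 1 library left out at a time, the differences that changed sign had the following ranges. In *Mertk* -/-V2 against B6 WT RPE they ran from -0.20 to 0.0343 for *Rgr*, from -0.0365 to 0.16 for *Rdh5*, from -0.24 to 0.0210 for *Rdh10*, from -0.0579 to 0.20 for *Lrat*, from -0.24 to 0.0735 for *Rpe65*, from -0.22 to 0.00823 for *Stra6*, from -0.0124 to 0.22 for *Rlbp1* and from -0.10 to 0.0766 for *Rdh11*. In *Mertk* -/-V3 against B6 WT RPE they ran from -0.74 to 0.00418 for *Rgr*, from -0.55 to 0.26 for *Rdh5*, from -0.66 to 0.10 for *Lrat*, from -0.69 to 0.0447 for *Stra6* and from -0.66 to 0.0649 for *Ttr*. In *Mertk* -/-V1 against the mean of the other lines they ran from -0.19 to 0.0363 for *Rdh11*. In *Mertk* -/-V2 against B6 WT BMDMs they ran from -0.16 to 0.0473 for *Rdh11*. In *Mertk* -/-V3 against B6 WT BMDMs they ran from -0.0724 to 0.0506 for *Rdh10* and from -0.0326 to 0.0204 for *Rdh11*. Where a group of 3 lost a library, the spread was still shared over all genotypes. With 3 mice in a group the 95% interval of *Rpe65* in *Mertk* -/-V2 RPE was -0.94 to 0.84, so differences within it are not excluded. This interval is not adjusted for the number of genes and does not give the size needed to pass both thresholds.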
